A study of Homo sapiens with 8 samples.

Results

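The transforming growth factor beta (TGF-beta) ligands, their latency proteins and genes that they induce were followed as 9 genes in 8 RNA sequencing libraries: TGFB1, TGFB2, TGFB3, LTBP1, LTBP2, THBS1, CCN2, TGFBI and INHBA. The genes were listed by name and not by a rule on measured values, but with earlier results of these data known. All 9 were found by Ensembl identifier among the 63241 gene rows of the deposited count table. By their labels, all libraries came from HSC3, an established cell line of human oral squamous cell carcinoma. By the same labels, 4 libraries came from cells transfected with siRNA to COL1A1 and 4 from cells with a negative control siRNA, each at 100 pmol with a lipid reagent for 48 hours. The labels do not say that the 4 libraries of a kind are separate cultures, so a p-value here reflects the scatter among libraries, which may be technical. The title of the series names COL1A1 knockdown and the epithelial-mesenchymal transition, migration and invasion of these carcinoma cells, programmes in which TGF-beta signalling has a known part.

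TGF-beta is secreted as a latent complex, in which the mature ligand is held by its own propeptide and that propeptide is bound to a latent TGF-beta binding protein in the extracellular matrix. Integrins, proteases and thrombospondin 1 can release the ligand, which then binds receptor kinases and drives SMAD transcription factors into the nucleus. In squamous carcinomas the ligands come from tumour cells and from stroma, and the pathway is known for inducing matrix genes in fibroblasts and mesenchymal features in epithelial cells. Activin A, a dimer of the INHBA product, signals through the same receptor-activated SMADs by receptors of its own.

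The target gene and the markers of cell type did not follow the labels. COL1A1 stood at 367.6, 122.7, 300.9 and 155 CPM (counts per 1e+06 counts of the library) in replicates 1 to 4 of the libraries labelled knockdown, against 88.95, 8183, 475.9 and 689.5 CPM in those labelled control. The labels overlapped, control-labelled library 1 lay below all 4 labelled knockdown, and the exact two-sided permutation test of log2(CPM + 1) gave p = 0.286. Groups are therefore called by their labels. Squamous keratinocyte markers took 0.136% to 19.8% of counts in knockdown-labelled libraries and 0.0599% to 7.12% in control-labelled ones. All 15 of these markers were above 0 in every library, but the low ends were knockdown-labelled library 2 and control-labelled library 1. There 14 and 13 of the markers were above 1 CPM, and IVL stood at 0.13 and 0.381 CPM. The same libraries had the highest salivary gland share of their label. Skeletal muscle markers took 0.00469% to 4.77% with the knockdown label and 0.0098% to 15.2% with the control label. Salivary gland markers took 0.00096% to 11.6% with the knockdown label and 0.000211% to 13.7% with the control label, and fibroblast markers 0.0687% to 0.13% with the knockdown label and 0.12% to 2.06% with the control label. Skeletal muscle and salivary gland RNA at such levels is not what a culture of 1 carcinoma line should hold, so each value below compares libraries by their labels, and whether they are what the labels say cannot be told from the counts. Over 1% of counts in muscle or gland markers stood in knockdown-labelled libraries 2 and 4 and in control-labelled libraries 1 and 3. The remaining libraries, knockdown-labelled 1 and 3 and control-labelled 2 and 4, held markers of other cell types too. Endothelial markers took 0.0294%, 0.0163%, 0.0505% and 0.0191% of their counts in that order. The leukocyte gene PTPRC stood at 21.1, 17.5, 75.9 and 29.3 CPM. These are bulk libraries, so fewer cells of a type and less RNA per cell cannot be told apart in any value below. Totals ran from 30684584 to 61795990 counts per library, and each of the 9 genes had between 30 and 46274 counts in each library.

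TGFB3 was the only one of the 9 genes whose labels did not overlap, with every library labelled knockdown below every library labelled control. TGFB3 (ENSG00000119699.8; chromosome 14 from 75958099 to 75982991, minus strand, GRCh38) encodes the ligand best known from mesenchyme and palate development. It had 12.9, 22.4, 8.28 and 8.77 CPM in the libraries labelled knockdown and 31.3, 130.8, 39.5 and 25.8 CPM in those labelled control. The highest value was that of control-labelled library 2, and the narrowest gap lay between 22.4 CPM in knockdown-labelled library 2 and 25.8 CPM in control-labelled library 4. Over all 21192 genes tested, 311 had the same separation in this direction, a share of 1.47%. The log2 fold change in the fit was -1.96 (SE 0.565). The unadjusted edgeR p was 0.00726 and the adjusted p 0.981 in edgeR's quasi-likelihood test with Benjamini-Hochberg adjustment, so TGFB3 was not called. The exact two-sided permutation test gave p = 0.0286, the smallest that 70 assignments allow. Without control-labelled library 2 the log2 fold change was -1.19.

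TGFB3 went broadly but not in every library with fibroblast markers, and the fibroblast marker sum overlapped between labels. Across the 8 libraries the Pearson correlation of TGFB3 with all 15 fibroblast markers summed, COL1A1 included, was 0.90 on the log2 scale, given as a description of libraries that also share their other markers. Spearman's rho was 0.786. The fibroblast marker sum lay at or below 0.13% of counts in all libraries labelled knockdown and at 0.12%, 2.06%, 0.467% and 0.202% in those labelled control. Knockdown-labelled library 4 had 0.13% and 8.77 CPM of TGFB3, while control-labelled library 1 had 0.12% and 31.3 CPM. Of these 15 markers 13 were above 0 in every library. Most of the sum in control-labelled library 2 was COL1A1, COL1A2 and COL3A1, at 8183, 5108 and 5116 CPM. COL6A3, PDGFRB, FAP and THY1 were also highest in that library, whereas DCN, LUM, FBLN1, PDGFRA, DPT and PI16 were highest in control-labelled library 3. MFAP5 was highest in knockdown-labelled library 1, at 23 CPM, and C7 in control-labelled library 1, at 25.3 CPM. Relative to the sum of 14 fibroblast markers without COL1A1, a scale chosen after seeing the data, the label difference of TGFB3 was 0.15 (log2). The exact two-sided permutation test of that ratio gave p = 0.886. This scale shifts every gene by the same 1.98, so it tells nothing of TGFB3 alone. The part of fibroblast RNA in the TGFB3 difference was not tested beyond this ratio.

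TGFB1 (ENSG00000105329.11; chromosome 19 from 41301587 to 41353911, minus strand) is the most widely expressed ligand, made by epithelia, immune cells and stroma. It stood at 69, 11.8, 54.6 and 16.5 CPM in knockdown-labelled libraries and at 10.8, 125.5, 15.2 and 189.2 CPM in control-labelled ones. In each label a pair of libraries was high and a pair low, and the low pairs were the 4 libraries rich in muscle or gland markers. The mean was 38 ± 28.2 CPM with the knockdown label and 85.2 ± 87.3 CPM with the control label (SD, n = 4 each). The edgeR log2 fold change was -0.80 (SE 0.991), and with each library left out in turn it ran from -1.27, without knockdown-labelled library 1, to -0.05, without control-labelled library 4.

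TGFB2 (ENSG00000092969.12; chromosome 1 from 218346235 to 218444619, plus strand), a ligand known from epithelial-mesenchymal interactions in development, had the lowest median level per kilobase of the 9. It stood at 4.27, 7.95, 0.823 and 6.39 CPM in the libraries labelled knockdown and at 7.53, 8.5, 13.3 and 2.69 CPM in those labelled control. Its lowest values fell in knockdown-labelled library 3 and control-labelled library 4, and the labels overlapped, with a log2 fold change of -0.64 (SE 0.653). Without knockdown-labelled library 3 it was -0.31, and without control-labelled library 3 it was -0.38. The TGFB2 exons share 26.6% of their length with the gene TGFB2-OT1 on the same strand, so its counts may be split or lost there.

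**Figure D1:**
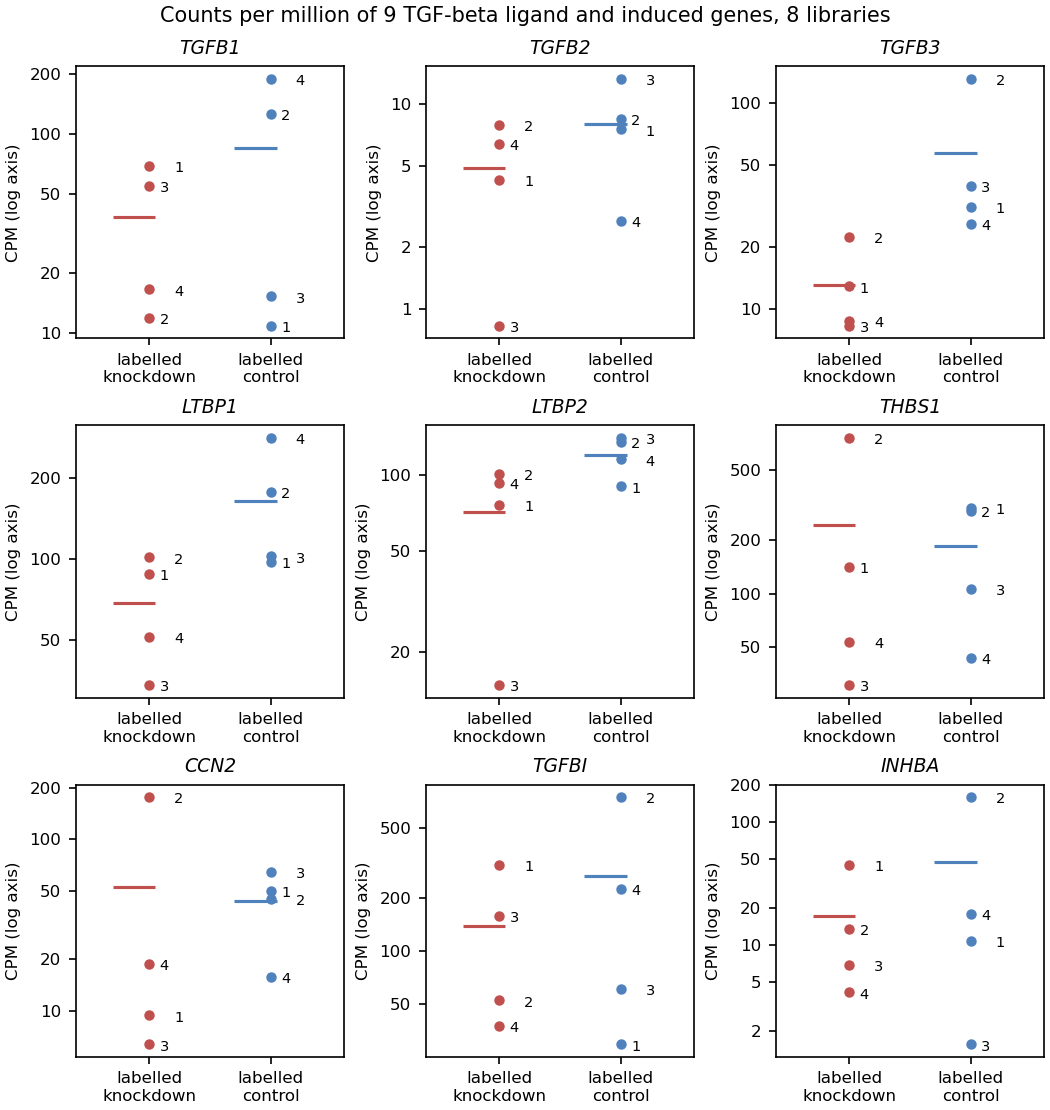
CPM of column totals (log axes) of the 9 genes in the 4 libraries labelled knockdown (left, red) and the 4 labelled control (right, blue); digits are replicate numbers and short lines are means. TGFB3 is the only panel in which the labels do not overlap, while TGFB1 and TGFBI split each label into a high and a low pair.

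Per kilobase of exon, which allows levels of different genes to be compared, TGFB1 was the leading ligand in 5 of the 8 libraries and TGFB3 in 3. TGFB1 made up 86%, 37.5%, 90.1% and 62.8% of the summed ligand level per kilobase in the libraries labelled knockdown and 29.9%, 57.8%, 30.6% and 91% in those labelled control. TGFB3 made up 10.6%, 46.7%, 9% and 22% in knockdown-labelled libraries and 57%, 39.7%, 52.5% and 8.18% in control-labelled ones. TGFB2 never exceeded 16.9%. TGFB3 led in knockdown-labelled library 2 and in control-labelled libraries 1 and 3, all of them libraries rich in muscle or gland markers, although TGFB1 led in knockdown-labelled library 4, which also held muscle markers. The summed level was 24.8, 9.75, 18.7 and 8.12 CPM per kilobase in libraries labelled knockdown against 11.2, 67, 15.3 and 64.2 CPM per kilobase in those labelled control, and the labels overlapped.

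**Figure D2:**
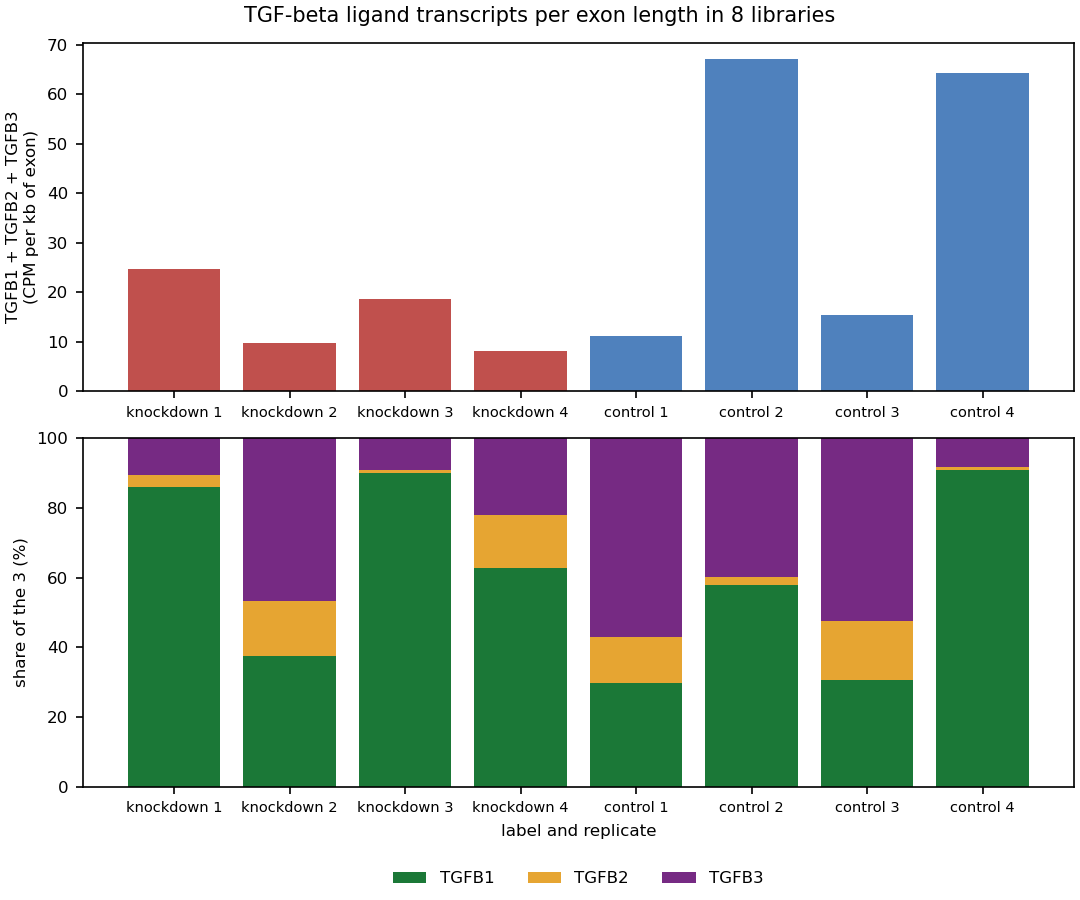
Summed level of TGFB1, TGFB2 and TGFB3 in CPM per kilobase of exon (top) and the share of each ligand in that sum in percent (bottom), by label and replicate. TGFB1 runs from 29.9% in control-labelled library 1 to 91% in control-labelled library 4, so the mix of ligands varied as widely within the control label as over all 8 libraries.

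Of the latency proteins, LTBP1 (ENSG00000049323.16; chromosome 2 from 32946972 to 33399509, plus strand) binds all 3 latent ligands and anchors them in the matrix. It had 87.8, 101.3, 34 and 51.3 CPM in the libraries labelled knockdown and 97.8, 177.2, 102.3 and 282.1 CPM in those labelled control. The labels overlapped by 1 pair of libraries, since knockdown-labelled library 2 lay above control-labelled library 1. Its log2 fold change was -1.11 (SE 0.456), or -0.74 without control-labelled library 4, with an unadjusted edgeR p of 0.0384, an adjusted edgeR p of 0.981 and an exact permutation p of 0.0571. TGFB3 and LTBP1 were the 2 of 9 genes with an unadjusted p under 0.05, both lower, against 1.88% of all tested genes in that direction.

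LTBP2 (ENSG00000119681.12; chromosome 14 from 74498170 to 74612378, minus strand), a relative that does not bind latent TGF-beta and associates with elastic microfibrils, had 76, 100.6, 14.8 and 93.1 CPM in knockdown-labelled libraries and 90, 135.2, 140 and 115 CPM in control-labelled ones. Knockdown-labelled library 3 was far below the rest, and the labels overlapped. In the fit the log2 fold change was -0.65 (SE 0.459), or -0.34 without that library, and the exact permutation p was 0.0857, or 0.0286 where CPM were computed on library sizes scaled by trimmed mean of M values (TMM). LTBP3, which like LTBP1 binds latent ligand, had 50.9, 124, 15.6 and 58.9 CPM in knockdown-labelled libraries, against 140.2, 94.8, 73.8 and 42.5 CPM in control-labelled ones. LTBP4, a protein of elastic fibre assembly that binds mainly latent TGF-beta 1, had 37.2, 85, 13.5 and 186.2 CPM in knockdown-labelled libraries, against 224.3, 73, 239.8 and 255.3 CPM in control-labelled ones. Both overlapped between labels. Summed per kilobase, the 4 LTBP genes stood at 29.9, 47.4, 9.44 and 45.9 CPM per kilobase in libraries labelled knockdown and at 64.5, 57.2, 66.1 and 86.7 CPM per kilobase in those labelled control, with no overlap; the sum was formed with these values known and is given with no test. LTBP4 alone held 50% of that sum in knockdown-labelled library 4 and 42.9% and 44.7% in control-labelled libraries 1 and 3, and 15.4% to 36.3% in the other 5.

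THBS1 (ENSG00000137801.11; chromosome 15 from 39581079 to 39599466, plus strand) encodes thrombospondin 1, a matricellular protein that can activate latent TGF-beta and is itself induced by it. It had 141.7, 757.5, 30.6 and 53.6 CPM in libraries labelled knockdown and 305.7, 293.1, 106.6 and 43.8 CPM in those labelled control. Knockdown-labelled library 2 had the most of all 8 libraries, and the others labelled knockdown lay within the range of the control label except for library 3, which was below it. Fitted over all 8 libraries, the log2 fold change was 0.32 (SE 0.988) and turned to -1.12 without knockdown-labelled library 2. Platelets are a known rich source of this protein, and 9 platelet and megakaryocyte markers together took 0.000292% to 0.00077% of counts with the knockdown label and 0.000321% to 0.0011% with the control label. PF4 was at 0 in all 8 libraries, and the highest single value was 5.68 CPM of GP1BA in control-labelled library 3.

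CCN2 (ENSG00000118523.6; chromosome 6 from 131948176 to 131951373, minus strand), formerly CTGF, encodes a matricellular protein induced by SMADs and by the YAP and TEAD factors. It had 9.4, 176.4, 6.36 and 18.8 CPM in knockdown-labelled libraries and 50, 44.9, 64.3 and 15.7 CPM in control-labelled ones. Knockdown-labelled library 2 was again the highest of all 8, while the other 3 labelled knockdown lay below 3 of the 4 labelled control. Its log2 fold change of 0.22 (SE 0.94) turned to -1.74 without that library, and the difference of mean log2(CPM + 1) was -0.81 (exact permutation p = 0.514). For THBS1 and CCN2 the sign thus depended on whether means were taken on a linear or a log scale.

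TGFBI (ENSG00000120708.17; chromosome 5 from 136028895 to 136063818, plus strand) encodes a secreted adhesion protein named for its induction by TGF-beta. It stood at 308.3, 52.5, 157.8 and 37.7 CPM in libraries labelled knockdown and at 29.6, 748.8, 61.2 and 224.4 CPM in those labelled control. The high libraries were the same pairs as for TGFB1, and the highest was control-labelled library 2. For TGFBI the log2 fold change was -0.57 (SE 1.05), or 0.74 without control-labelled library 2.

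INHBA (ENSG00000122641.11; chromosome 7 from 41667168 to 41705834, minus strand), the beta A subunit of activin and inhibin, had the widest range of the 9 genes, 103.7-fold between the lowest and highest library. It had 45, 13.6, 6.94 and 4.11 CPM in knockdown-labelled libraries and 10.7, 160.9, 1.55 and 17.9 CPM in control-labelled ones, so that both the highest and the lowest library were labelled control. The log2 fold change was -1.17 (SE 1.26), or 0.96 without control-labelled library 2.

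None of the 9 genes passed the test, and none of the 21192 genes tested did: edgeR called 0% and limma-voom 0 genes. With DESeq2 146 genes passed, 0.523% of those given an adjusted p, and none of the 9 was among them. At an unadjusted edgeR p under 0.05 stood 1013 genes, or 4.78%. DESeq2 gave no p for CCN2, and its adjusted p was 0.183 for TGFB3 and 0.717 for LTBP1. Of the 9 genes 7 had a lower and 2 a higher fitted value in knockdown-labelled libraries, with a median log2 fold change of -0.65. The split was 5 lower and 4 higher without control-labelled library 2, 9 and 0 without knockdown-labelled library 2 or control-labelled library 4, and the median was -1.27 without knockdown-labelled library 1. Over all tested genes 53.2% were fitted lower and the median was -0.05. Exact permutation p-values of the other 7 genes ran from 0.0857 for LTBP2 to 0.8 for THBS1 and INHBA. With TGFB1 at 0.629, TGFB2 at 0.371, CCN2 at 0.514 and TGFBI at 0.771 between them, none of these differences passed the test. That spread was wide: within labels the SD of log2(CPM + 1) was 2 for INHBA, 1.75 for TGFBI, 1.7 for THBS1, 1.68 for TGFB1 and 1.58 for CCN2, but 0.928 for TGFB2, 0.921 for LTBP2, 0.851 for TGFB3 and 0.716 for LTBP1. The median over all tested genes was 0.564.

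**Figure D3:**
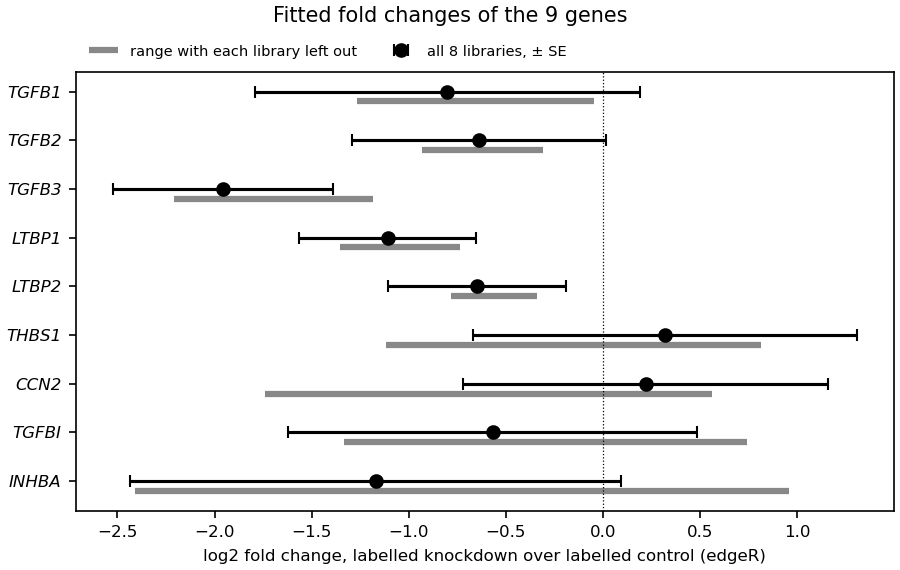
Log2 fold change of the libraries labelled knockdown over those labelled control for the 9 genes in the edgeR fit of all 8 libraries (points, bars are SE), with the range of values when each library was left out (grey). TGFB1, TGFB2, TGFB3, LTBP1 and LTBP2 stay below 0 in each of these fits, whereas THBS1, CCN2, TGFBI and INHBA cross it.

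Pairs of the 9 genes differed in how closely they followed each other across libraries. Correlations here are Pearson's r of log2(CPM + 1) over 8 libraries, which share a total and differ in several cell type markers at once, and they are given as description only. TGFB1 and TGFBI had r = 0.90 and Spearman's rho of 0.857, and INHBA went with TGFBI (r = 0.79). CCN2 went with THBS1 (r = 0.82) and with TGFB2 (r = 0.79), while LTBP2 went with TGFB2 (r = 0.83) and with LTBP1 (r = 0.73). TGFB1 ran opposite to CCN2 (r = -0.55) and to TGFB2 (r = -0.50). The induced genes TGFBI and CCN2 had r = -0.38 with each other. TGFB3 and LTBP1 were positive with all 8 others, TGFB3 from 0.22 with TGFB1 to 0.70 with LTBP1, and LTBP1 from 0.29 with THBS1 to 0.73 with LTBP2.

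The genes also differed in how they followed the marker sums. TGFB1 was high where squamous markers were high (r = 0.67) and low where skeletal muscle (r = -0.80) and smooth muscle markers (r = -0.77) were high, and TGFBI likewise (0.63, -0.69 and -0.70). CCN2 was the reverse, with r = -0.78 for squamous, 0.78 for skeletal muscle and 0.80 for smooth muscle markers. DES stands in both muscle lists, so their sums are not independent. In control-labelled libraries 1 and 3 DES had 3832 and 2724 CPM, while the whole smooth muscle sum was 0.561% and 0.325% of counts. NOTCH3, also of the smooth muscle list, had 401.2 and 635.4 CPM in knockdown-labelled libraries 1 and 3. In control-labelled libraries 2 and 4 NOTCH3 had 743.6 and 700.4 CPM. The whole sum in those libraries was 0.063%, 0.0761%, 0.153% and 0.0959% in that order. The r values with this sum thus do not describe smooth muscle alone. TGFB2 had r = 0.86 with endothelial and 0.84 with skeletal muscle markers, but Spearman's rho was only 0.548 and 0.69. THBS1 had r = 0.83 with leukocyte markers. LYZ, which salivary glands also express, made up 98.7% of the leukocyte sum in knockdown-labelled library 2 and 99% in control-labelled library 1, and no more than 29.7% elsewhere. Without LYZ the other 14 leukocyte markers had r = 0.33 with THBS1 and were highest in control-labelled library 2. The part of these cell types in the levels of the 9 genes was not tested.

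**Figure D4:**
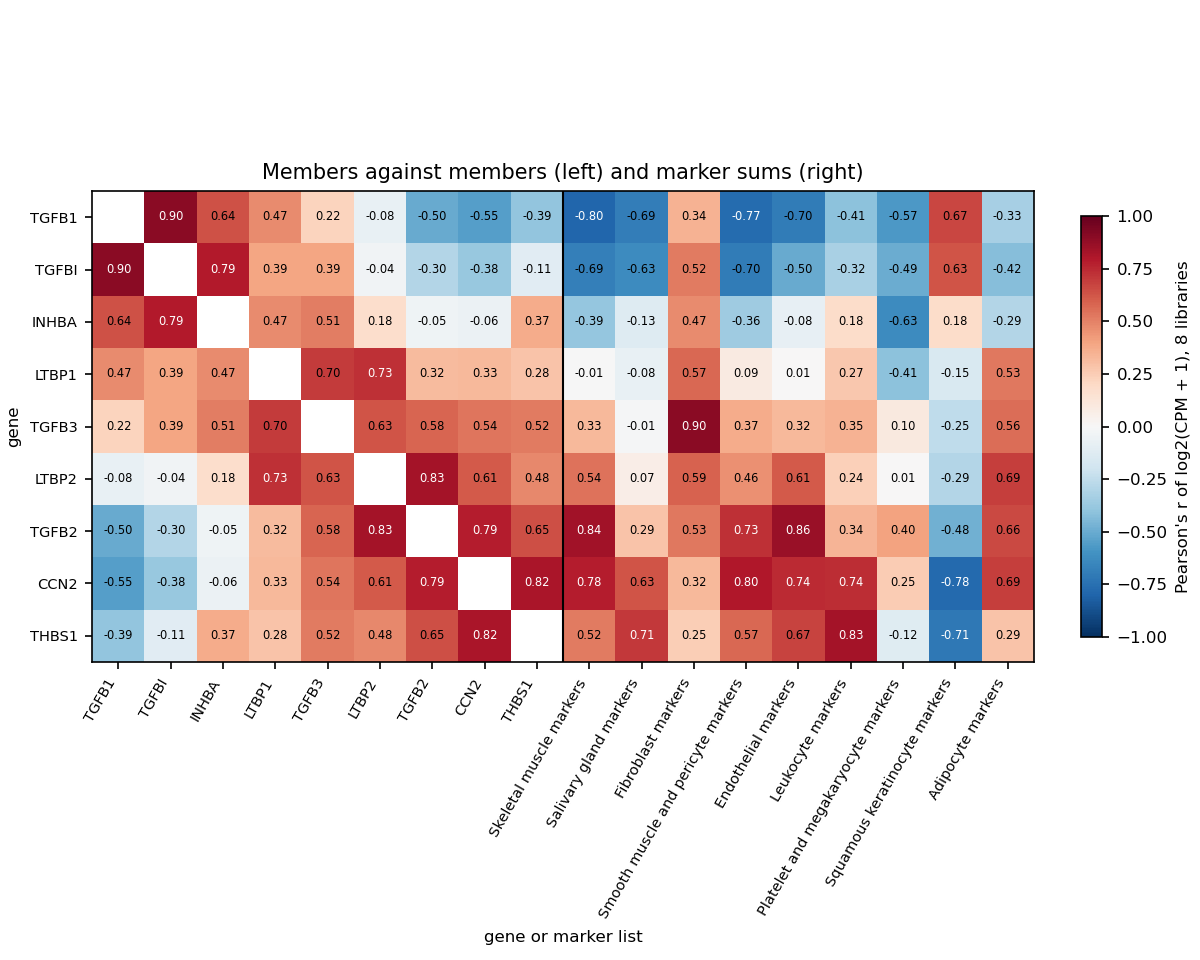
Pearson's r of log2(CPM + 1) over the 8 libraries for each of the 9 genes against the other 8 (left of the line) and against the summed CPM of 9 marker lists (right). TGFB1 and TGFBI are red for squamous markers and blue for muscle markers, CCN2 and THBS1 show the opposite, and TGFB3 has its highest value, 0.90, with fibroblast markers.

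The leading member per kilobase differed accordingly. TGFBI led in knockdown-labelled libraries 1 and 3 and control-labelled library 2, at 39.5, 20.2 and 95.9 CPM per kilobase. THBS1 led in knockdown-labelled library 2 and control-labelled library 1, at 82.7 and 33.4, LTBP2 in knockdown-labelled library 4 at 10.2, CCN2 in control-labelled library 3 at 27.5 and TGFB1 in control-labelled library 4 at 58.4 CPM per kilobase. In the other direction, TGFB2 or INHBA was the lowest of the 9 in each of the 8 libraries.

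In a search of 13717 genes (average log2 CPM in edgeR of 1 or more; pseudogenes and clone names left out), those whose pattern over the 8 libraries was most like TGFB1 were SKIC2, a helicase of cytoplasmic RNA decay, and NOL6, a nucleolar protein, each with r = 0.99. For TGFB2 they were CAPS2 and SLMAP (r = 0.99 and 0.98), for TGFB3 the leukocyte-associated genes CYTH4 and APBB1IP (0.987 and 0.985), for LTBP1 the syntaxin STX2 and the nucleotide synthesis gene PRPS1 (0.99 and 0.98), and for LTBP2 MDC1 and GTF3A (0.99 and 0.98). For THBS1 they were GPC6, a glypican, and SOX9, a transcription factor of cartilage and gland progenitors (0.985 and 0.96), and for CCN2 IQGAP2 and SLC12A7, a potassium-chloride cotransporter (both 0.99). For TGFBI they were COPS5 and ANKLE2 (both 0.98), and for INHBA RNF121 and the basement membrane collagen COL4A1 (0.96 and 0.94). High values were many for some genes and few for others: TGFB1 had r of at least 0.9 with 315 genes, CCN2 with 224 and INHBA with 8. The 8 libraries differ in several cell type markers at once, so these likenesses are given as description only.

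Promoter sequence is shown for TGFB1 and TGFBI, the pair with the highest r, for CCN2 with THBS1 and TGFB2, the genes it followed most closely, and for the start of TGFB3 with a TATA box, TGFB3 being the gene whose labels separated. Each run gives the 250 bases before the RefSeq start (GRCh38.p14), 5′ to 3′ on the gene's strand. Capitals mark matches on either strand to 4 motifs. The SMAD box searched was CAGAC, the core of the TEAD motif was CATTCC, the AP-1 motif was TGANTCA and the TATA box was TATAAA. No match overlapped another.
CCN2, chr6:131951373-131951622, minus strand: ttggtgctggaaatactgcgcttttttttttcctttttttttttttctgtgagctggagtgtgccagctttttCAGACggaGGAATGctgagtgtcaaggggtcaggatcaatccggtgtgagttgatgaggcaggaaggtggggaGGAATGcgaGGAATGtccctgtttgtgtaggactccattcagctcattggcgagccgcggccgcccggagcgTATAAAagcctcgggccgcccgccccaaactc
THBS1, chr15:39580829-39581078, plus strand: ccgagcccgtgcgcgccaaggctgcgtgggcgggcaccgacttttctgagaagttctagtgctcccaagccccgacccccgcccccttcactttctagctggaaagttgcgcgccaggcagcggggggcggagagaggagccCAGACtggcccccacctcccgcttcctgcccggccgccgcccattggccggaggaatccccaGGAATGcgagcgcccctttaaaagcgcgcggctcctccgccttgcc
TGFB2, chr1:218345086-218345335, plus strand: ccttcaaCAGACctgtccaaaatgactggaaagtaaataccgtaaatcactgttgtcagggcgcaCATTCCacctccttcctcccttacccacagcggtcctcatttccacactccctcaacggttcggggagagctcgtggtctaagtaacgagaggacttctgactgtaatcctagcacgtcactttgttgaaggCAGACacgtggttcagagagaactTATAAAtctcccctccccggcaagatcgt
TGFB1, chr19:41353923-41354172, minus strand: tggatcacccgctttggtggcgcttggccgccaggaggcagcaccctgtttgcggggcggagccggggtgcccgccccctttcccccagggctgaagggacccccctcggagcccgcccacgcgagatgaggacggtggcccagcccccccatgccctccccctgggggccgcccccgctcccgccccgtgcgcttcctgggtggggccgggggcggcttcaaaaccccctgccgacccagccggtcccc
TGFBI, chr5:136028738-136028987, plus strand: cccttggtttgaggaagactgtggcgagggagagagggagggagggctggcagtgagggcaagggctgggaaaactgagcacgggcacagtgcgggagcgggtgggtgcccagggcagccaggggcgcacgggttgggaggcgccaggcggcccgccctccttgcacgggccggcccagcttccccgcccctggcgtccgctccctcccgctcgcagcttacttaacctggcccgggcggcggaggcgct
TGFB3, chr14:75981996-75982245, minus strand: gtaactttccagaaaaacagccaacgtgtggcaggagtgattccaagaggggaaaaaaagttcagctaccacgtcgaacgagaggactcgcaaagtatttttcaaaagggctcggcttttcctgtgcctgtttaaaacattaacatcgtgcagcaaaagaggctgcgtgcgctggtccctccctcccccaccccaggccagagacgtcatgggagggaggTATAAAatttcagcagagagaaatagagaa

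CCN2 held 3 TEAD matches, 95 to 169 bases before the start, 1 SMAD box and a TATA box. THBS1 held 1 TEAD match and 1 SMAD box, and TGFB2 held 1 TEAD match, 2 SMAD boxes and a TATA box. TGFB1 and TGFBI held no match to any of the 4 motifs in these windows, whose bases were 76.8% and 72.8% G or C, against 53.2% for CCN2, 69.6% for THBS1 and 50.4% for TGFB2. Of 35116 windows of the same length in the RefSeq table, 11.9% held the TEAD motif, 38% the SMAD box, 6.57% the AP-1 motif and 10.7% the TATA box on either strand. Among the other genes, the other start of TGFB3 held 2 SMAD boxes, the 3 starts of LTBP1 held 2, 1 and 1, LTBP2 held none of the 4 motifs and INHBA held a TATA box. A match is a description of letters and says nothing of factor binding in these cells.

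**Figure D5:**
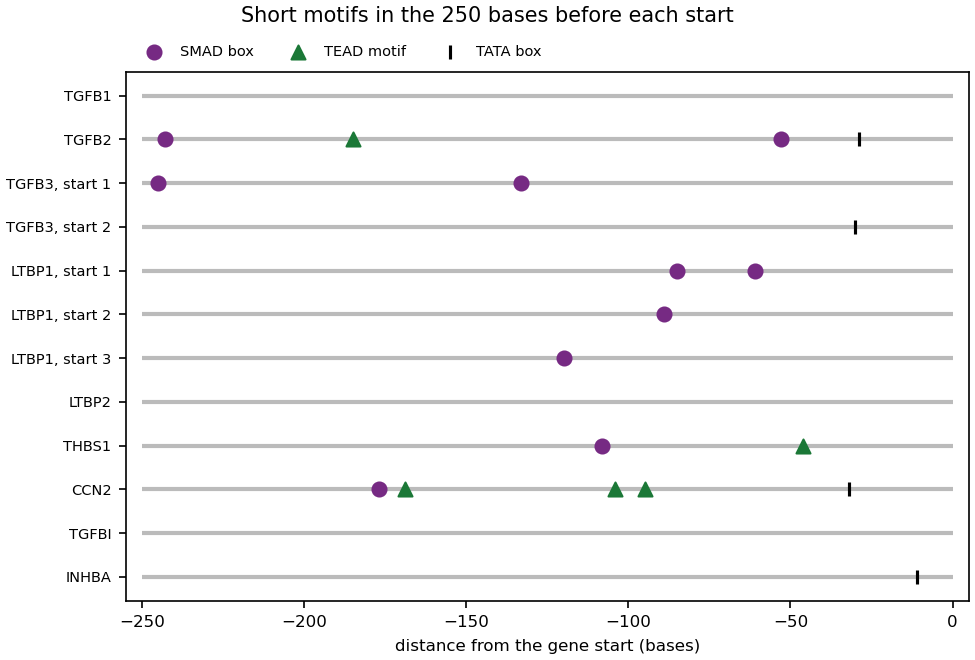
Positions of matches on either strand to 4 short motifs in the 250 bases before the 12 RefSeq starts of the 9 genes, by distance from the start in bases. CCN2 carries 3 TEAD matches and THBS1 and TGFB2 carry 1 each, while TGFB1, TGFBI and LTBP2 carry no match; the AP-1 motif has none in any of the 12.

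The rest of the pathway was read from 7 lists by role, and no member of any list was called, against the same background of 0%. Among receptors 3 of 14 measured genes were fitted higher and 11 lower (median log2 fold change -0.22). TGFBR2, the ligand-binding receptor kinase, had 67.8, 180.7, 51.3 and 100 CPM in knockdown-labelled libraries and 144.7, 150.1, 133.4 and 131.4 CPM in control-labelled ones. The control-labelled values lay close together and within the knockdown-labelled range. The log2 fold change of TGFBR2 was -0.41 (SE 0.351), or -0.73 without knockdown-labelled library 2 and -0.27 without knockdown-labelled library 3. The activin receptor ACVR2B stood at 13 ± 11 CPM (knockdown label) against 31.6 ± 8.15 CPM (control label), as means and SD of 4 libraries here and below, with a log2 fold change of -1.27, the co-receptor CD109 at 118.9 ± 78.4 CPM (knockdown label) against 227.1 ± 215.8 CPM (control label), and BMPR2 at 141.9 ± 6.34 CPM (knockdown label) against 165.5 ± 56 CPM (control label). Without control-labelled library 2 the median of the receptors was 0.03.

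Of 21 SMADs and regulators of SMAD signalling 7 were fitted higher and 14 lower (median -0.16). SMAD2, a receptor-activated SMAD, stood at 116.8 ± 21.4 CPM (knockdown label) against 118.4 ± 28.4 CPM (control label), and the SMAD repressor SKIL at 100.1 ± 53.7 CPM (knockdown label) against 111 ± 78.7 CPM (control label). BAMBI, a decoy receptor that dampens TGF-beta signalling, had 1.46, 14.9, 14.6 and 30.9 CPM in libraries labelled knockdown and 4.57, 5.08, 1.33 and 0.654 CPM in those labelled control. Its 3 highest libraries were labelled knockdown, but knockdown-labelled library 1 lay within the control range (log2 fold change 2.46, SE 0.944, edgeR adjusted p = 0.981). SMURF2, a ubiquitin ligase for the receptor, was at 16.4 ± 6.68 CPM (knockdown label) against 31 ± 13.2 CPM (control label).

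Of 22 genes of latency and activation 6 were fitted higher and 16 lower (median -0.83, or -0.34 without control-labelled library 2). PCSK6, a proprotein convertase, had 17, 18.2, 41.9 and 29.1 CPM in libraries labelled knockdown and 10.6, 9.03, 14.1 and 9.79 CPM in those labelled control. Its labels did not overlap, a separation that 187 of all 21192 tested genes had in this direction (0.882%), with the knockdown label higher by a log2 fold change of 1.54 (SE 0.434; adjusted p = 0.981 in edgeR's quasi-likelihood test with Benjamini-Hochberg adjustment). PLAT, tissue plasminogen activator, had 19.1, 15.1, 12.3 and 22.4 CPM in knockdown-labelled libraries against 23.7, 456, 28.4 and 28.9 CPM in control-labelled ones, with no overlap, as in 1.47% of tested genes in that direction, but a narrow gap of 22.4 to 23.7 CPM. The log2 fold change of PLAT was -2.74 (SE 1), or -0.49 without control-labelled library 2. The integrin subunit ITGB1 stood at 249.6 ± 137.2 CPM (knockdown label) against 495.1 ± 274.9 CPM (control label) and the membrane protease MMP14 at 147.9 ± 60.8 CPM (knockdown label) against 419.6 ± 354.6 CPM (control label).

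Of 10 activin ligands, antagonists and relatives of these measured, 3 were fitted higher and 7 lower (median -0.98). The follistatin relative FSTL1 was at 72.9 ± 65.7 CPM (knockdown label) against 148.1 ± 72.4 CPM (control label). The activin antagonist FSTL3 was at 6.74 ± 2.84 CPM (knockdown label) against 18 ± 12.3 CPM (control label). The ligand GDF11 was at 6.25 ± 3.66 CPM (knockdown label) against 14.2 ± 6.05 CPM (control label). In the BMP branch 10 of 17 were fitted higher and 7 lower (median 0.09, or -0.75 without knockdown-labelled library 2). ID1, a direct BMP target, was at 117.8 ± 81.5 CPM (knockdown label) against 57.8 ± 45.8 CPM (control label), the ligand BMP2 at 23.3 ± 25.2 CPM (knockdown label) against 7.66 ± 4.54 CPM (control label), and the extracellular modulator TWSG1 at 25.1 ± 11.1 CPM (knockdown label) against 43.9 ± 27.4 CPM (control label).

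Of 32 other genes known to be induced by TGF-beta 11 were fitted higher and 21 lower (median -0.50, or -1.14 without knockdown-labelled library 2 and -0.13 without control-labelled library 2). COL1A2 had 232.8, 207.1, 126.9 and 243.9 CPM in knockdown-labelled libraries and 213.8, 5108, 893.3 and 438.6 CPM in control-labelled ones, with a log2 fold change of -2.81 (SE 0.964), or -1.12 without control-labelled library 2. COL3A1 stood at 188.9 ± 39.7 CPM (knockdown label) against 1549 ± 2384 CPM (control label) and the proteoglycan VCAN at 38.1 ± 34 CPM (knockdown label) against 172.1 ± 150 CPM (control label). These collagens are fibroblast markers as well, and control-labelled library 2 held the most fibroblast marker counts, 2.06% of its total. Most of those counts were COL1A1, COL1A2 and COL3A1 themselves. All 10 relatives of THBS1, CCN2 and TGFBI were fitted lower (median -0.99, or -0.61 without control-labelled library 2). POSTN, the paralog of TGFBI, which stands in both lists, had 13.7, 23.1, 23.3 and 11.8 CPM in knockdown-labelled libraries against 5.68, 623.8, 21.9 and 76.4 CPM in control-labelled ones, with overlap. THBS2 stood at 35.8 ± 44.9 CPM (knockdown label) against 62 ± 74.7 CPM (control label) and CCN4 at 2.37 ± 1.07 CPM (knockdown label) against 6.44 ± 5.66 CPM (control label).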

How the data were processed

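The deposited values are raw read counts per gene, whole numbers that the authors did not normalize. The submitters' processing notes name STAR, Subread, featureCounts and hg38, with no versions. RNA is labelled polyA, while the extraction protocol describes rRNA depletion. No annotation or strand setting is named, so reads of overlapping genes cannot be told apart: 7 of the 9 genes share 2.28% to 26.6% of their exon length with another gene in GENCODE 29 (GRCh38). Columns, which say knockout where titles say knockdown, were matched by label and number, and symbols by Ensembl identifier (62666 of 63241 rows).

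CPM use column totals. Levels per kilobase use GENCODE 29 exon unions, which may differ from the authors' annotation. The comparison was fitted over the whole table with edgeR 4.0.16 (quasi-likelihood, TMM, filterByExpr, intercept and label; R 4.3.3). A gene was called at a Benjamini-Hochberg adjusted p below 0.05; SE is the log2 fold change over the root of F. The 9 genes were also compared by exact two-sided permutation of log2(CPM + 1) over 70 assignments (smallest p 0.0286). Alternatives were DESeq2 1.42.0, limma-voom 3.58.1, RLE factors, library totals, other filters, a block for the replicate number, each library left out in turn, other scales and pseudocounts. The fits were tested on simulated data. The rule for named genes took the 9 genes, COL1A1, in each list the 2 most abundant members and the 2 of smallest p, and the 2 genes most like each of the 9. LTBP3, LTBP4, LYZ, PF4, GP1BA, PTPRC, IVL, DES, NOTCH3 and the single fibroblast markers were named outside it, after their values were seen. The members and lists were chosen with earlier results of these data known. Wilson 95% intervals of the marker shares were within 0.0123 percentage points and cover counting error only.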

Additional observations from a re-analysis of the deposited data

Results flagged for a closer look

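In 4 of 36 groups of 4 values looked at, 1 library stood far from the other 3 of its label. The limit used would flag about 1 in 20 groups of independent, normally distributed values. These values are skewed and some groups are shares of the same genes, so that rate cannot be set against the 4. TGFB3 was at 130.8 CPM in control-labelled library 2, against 39.5 CPM in the next control-labelled library. INHBA was at 160.9 CPM in the same library, against 17.9 CPM in the next. That library also held the most COL1A1 and fibroblast marker counts. THBS1 was at 757.5 CPM in knockdown-labelled library 2, against 141.7 CPM in the next library of that label, and CCN2 was at 176.4 CPM in the same library, against 18.8 CPM in the next. That library took 11.6% of its counts from salivary gland markers, against at most 0.00103% in the other 3 labelled knockdown. Its leukocyte markers took 1.43%, of which LYZ, a gene that salivary glands also express, made up 98.7%. The part of these cell types was not tested.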

How the results depend on the processing

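Of 273 alternative values, 245 kept their direction and side of the threshold, or stayed within the spread between libraries; 23 reversed, 4 moved and 1 passed a threshold it had missed. No gene was called in the other fits, except 146 with DESeq2 and, with each library left out in turn, 0 to 1 (the 1 without knockdown-labelled library 2). The log2 fold change of THBS1 reversed to -0.14 with limma-voom, -0.15 with the replicate block and -0.54 without the libraries rich in muscle or gland markers, an alternative chosen after seeing the data, and ran from -1.12 to 0.82 with each library left out. For CCN2 these values were -0.69, -0.76 and -1.48, and -1.74 to 0.56. In the same fits TGFBI ran from -1.33 to 0.74 and INHBA from -2.41 to 0.96. The difference of means was 58.6 CPM for THBS1 and 9.001 CPM for CCN2 on the linear scale, the reverse of the log scale. On TMM-scaled CPM that of LTBP2 was -0.85 on the log2 scale. Relative to the sum of 14 fibroblast markers without COL1A1, chosen after seeing the data, every gene shifts by the same 1.98 on the log2 scale, the label difference of that sum, so the 9 sign changes, 9 of the 23 reversed values, are 1 shift and tell nothing of a single gene: TGFB1 1.38, TGFB2 1.29, TGFB3 0.15, LTBP1 0.74, LTBP2 0.94, THBS1 1.67, CCN2 1.16, TGFBI 1.56 and INHBA 1.54. The median of the activin list was -0.31 without the muscle- or gland-rich libraries, and leaving out single libraries put that of the relatives between -0.99 and -0.61. The cause was not tested. Library totals without scaling moved the median of all genes to -0.21. Same-numbered libraries deviated in opposite ways (correlations -0.69 to -0.36), so the numbers do not pair them; with the replicate block TGFB3 was at -1.73, 0 genes were called and 352 had an unadjusted p under 0.05, against 1013 without it.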
